A study of Mus musculus with 6 samples.

Results

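The genes described here are 10 integrin subunits of epithelial cells that lie outside the hemidesmosome: *Itga1*, *Itga2*, *Itga5*, *Itga7*, *Itga9*, *Itgav*, *Itgb1*, *Itgb5*, *Itgb6* and *Itgb8*. They were taken by gene name from the array annotation and are measured by 14 of the 55681 non-control probes, which stand under 34298 gene names. *Itga1*, *Itgav*, *Itgb1* and *Itgb6* have 2 probes each, and the other 6 genes have 1. The study compared 3D organoids grown from the epithelium of the mouse esophagus, which is squamous, with those from the stomach, which is columnar, on single-color arrays with 3 arrays of each tissue. The labels name mice 1, 2 and 4, with 1 array of each tissue under each number, all from passage 0 and harvested on day 8, except that mouse 4 gave its stomach culture on day 7. The titles of all 6 arrays carry the word Control. The study's methods name wild-type C57BL/6 females among its mice, and the strain and age of mice 1, 2 and 4 are not in the labels used here. Both kinds of organoid grew in Matrigel with EGF, noggin, FGF-10, a TGF-β receptor kinase inhibitor and a ROCK inhibitor. The stomach medium also held WNT3A and R-spondin1 conditioned media and gastrin, and the esophagus medium held forskolin. Tissue and medium therefore changed together and cannot be told apart. The 2 tissues were also dissociated differently, the stomach as glands released with DTT and EDTA and the esophagus with collagenase and TrypLE.

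Integrins are receptors made of 1 α and 1 β subunit that hold cells to the extracellular matrix and link it to the actin cytoskeleton. The β1 subunit pairs with many α subunits, among them the collagen receptors α1 and α2, the laminin receptor α7, the fibronectin receptor α5 and α9. The αv subunit pairs with β1, β3, β5, β6 or β8 and binds ligands that carry an RGD motif, such as fibronectin, vitronectin and the latent forms of TGF-β. In stratified epithelium, α6β4 is the integrin of the hemidesmosome, the junction that anchors basal keratinocytes to the basement membrane, and α3β1 binds the same laminin.

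The 7 probes printed here are those that carry the differences in *Itga1*, *Itga2* and *Itgb6* and the measure of the shared β1 subunit. Each is the 60-base sense sequence on the array, 5′ to 3′, and positions are those of the array annotation in mouse build mm9. Capitals mark codons of conserved motifs of the cytoplasmic tail: the GFFKR motif next to the membrane in the α2 probe, and the NPxY motifs, which bind talin and kindlin, in the β1 probe.
Itga1 (A_52_P459929): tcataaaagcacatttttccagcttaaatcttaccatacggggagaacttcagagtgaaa
Itga1 (A_52_P518922): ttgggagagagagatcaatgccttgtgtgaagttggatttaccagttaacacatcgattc
Itga2 (A_51_P441983): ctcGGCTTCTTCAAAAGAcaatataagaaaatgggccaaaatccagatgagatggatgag
Itgb1 (A_66_P113059): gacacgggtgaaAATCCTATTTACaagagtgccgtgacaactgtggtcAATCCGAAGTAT
Itgb1 (A_52_P351816): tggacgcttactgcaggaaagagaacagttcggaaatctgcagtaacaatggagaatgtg
Itgb6 (A_51_P161054): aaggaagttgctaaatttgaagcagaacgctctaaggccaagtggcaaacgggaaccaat
Itgb6 (A_52_P93974): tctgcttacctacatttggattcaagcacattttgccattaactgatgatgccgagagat
The codons of GFFKR were found in 1 of the 55681 probes (0.0018%) and those of NPxY in 121 (0.217%), reading the printed strand in any frame. The *Itga1* probes lie at chr13:115756765-115758419 and chr13:115821387-115825525 on the minus strand, and the *Itga2* probe at chr13:115626714-115626773 on the same strand. *Itga1* and *Itga2* are next to each other among the protein-coding genes of chromosome 13 in the RefSeq table. The *Itgb1* probes lie at chr8:131250081-131255976 and chr8:131246349-131246408 on the plus strand, and the *Itgb6* probes at chr2:60438632-60443247 and chr2:60492788-60492847 on the minus strand. Of the 14 probes, 4 span more than 60 bases of the genome and so cross an exon junction, which are both of *Itga1*, the first of *Itgb1* and the first of *Itgb6*.

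The organoids carried the keratins of their labels. *Krt5*, a basal keratin of squamous epithelium, had a log2 intensity of 17.03 ± 0.02 in esophagus and 5.21 ± 0.26 in stomach (mean ± SD, n = 3), and *Krt8*, a keratin of simple epithelium, had 5.49 ± 0.29 and 16.74 ± 0.07. All 8 columnar markers were higher in stomach, among them *Tff1* (log2 fold change -12.33, esophagus minus stomach) and *Krt8* (-11.25), each well above background on 1 of 3 esophagus arrays, and *Pgc*, on none of them and at least 532-fold higher in stomach. Of 8 squamous markers 7 were higher in esophagus, among them *Krt5* (11.82) and *Krt14* (11.11), well above background on 1 and 2 of 3 stomach arrays, and *Krtdap*, on none of them and at least 3990-fold higher in esophagus. The exception was *Trp63*, the transcription factor of basal cells, whose brightest probe was higher in stomach (-1.22). Its 3 other probes were higher in esophagus, by about 54.5-fold or more on each, and not well above background in stomach. The call of that brightest probe was lost in 5 of the 6 fits that leave out 1 array (adjusted p = 0.06 to 0.123), all but the fit without stomach replicate 4. None of 12 fibroblast and smooth muscle markers and none of 8 immune and endothelial markers passed the test between tissues (limma, adjusted p under 0.05 and at least 1.5-fold), and 1 and 2 of them had an unadjusted p under 0.05. The summed intensity of the fibroblast and smooth muscle markers ranged from 725 to 1650 in esophagus and from 780 to 1930 in stomach, and *Pdgfra*, *Pdgfrb*, *Lum* and *Thy1* were on no array well above background, as was *Myh11*. *Tagln* (9.68 ± 0.95 in esophagus, 9.58 ± 0.96 in stomach) and *Acta2* (5.53 ± 0.99 and 4.91 ± 0.12) were so on all 6 arrays, *Des* on 2 of each tissue and *Col3a1* on 1 of esophagus and 2 of stomach. A probe counted as well above background on an array where any of its spots was. *Acta2* reached 6.67 in esophagus mouse 2 and 4.77 to 4.99 on the other arrays. Those values and *Des* (4.69 to 4.83) were close to the means of *Pdgfra* (4.81 and 4.82). The summed intensity of the immune and endothelial markers ranged from 4210 to 27200 and from 2790 to 5880, most of it from *Cd68*, and *Ptprc*, *Adgre1* and *Cdh5* were on no array well above background. *Cd68*, *Kdr*, *Cd3e* and *Pecam1* were so on all 6 arrays, with log2 fold changes of 1.62, 0.25, -0.51 and -0.17, none of them called. The RNA was from whole cultures, so that fewer cells of a type and less RNA per cell cannot be told apart.

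On the 14 probes, integrin subunits of both directions were found. A probe was called where the limma test gave an adjusted p under 0.05 over all probes and the change was at least 1.5-fold. Called higher in stomach were 4 probes, of *Itga1*, *Itga2* and *Itgb6* (both), and called higher in esophagus were 2, of *Itga5* and *Itgav*. In all, 5.76% of probes were called higher in esophagus and 6.20% higher in stomach. These 6 probes are 42.9% of the 14, beside 12.0% of all 55681 probes and 24.8% of the 25875 probes that all 3 arrays of at least 1 tissue measured well above background, a selection that favours probes that differ. By the brightest probe of each gene, 4 of the 10 subunits were called, *Itga1*, *Itga2* and *Itgb6* in stomach and *Itga5* in esophagus, beside 14.6% of all genes (7.70% in stomach and 6.93% in esophagus) and 26.3% of genes with a brightest probe measured as above. At p under 0.05 without adjustment and at least 1.5-fold, 11 of the 14 probes passed, beside 17.9% of all probes. The methods give these 2 limits without saying whether p was adjusted. The values of the tissues did not overlap on 10 of the 14 probes, 7 with all stomach arrays higher and 3 with all esophagus arrays higher, beside 29.2% of all probes, or 13.6% with all stomach arrays higher. The median log2 fold change was -0.83 over the 14 probes and 0.02 over all probes. *Itga9* and *Itgb8* stayed near background on each of the 6 arrays, so that 12 probes of 8 genes were measured on all 3 arrays of at least 1 tissue. With the mouse as a replicate block, 9 of the 14 probes were called, 2 in esophagus and 7 in stomach, beside 11.0% of all probes.

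**Figure D1:**
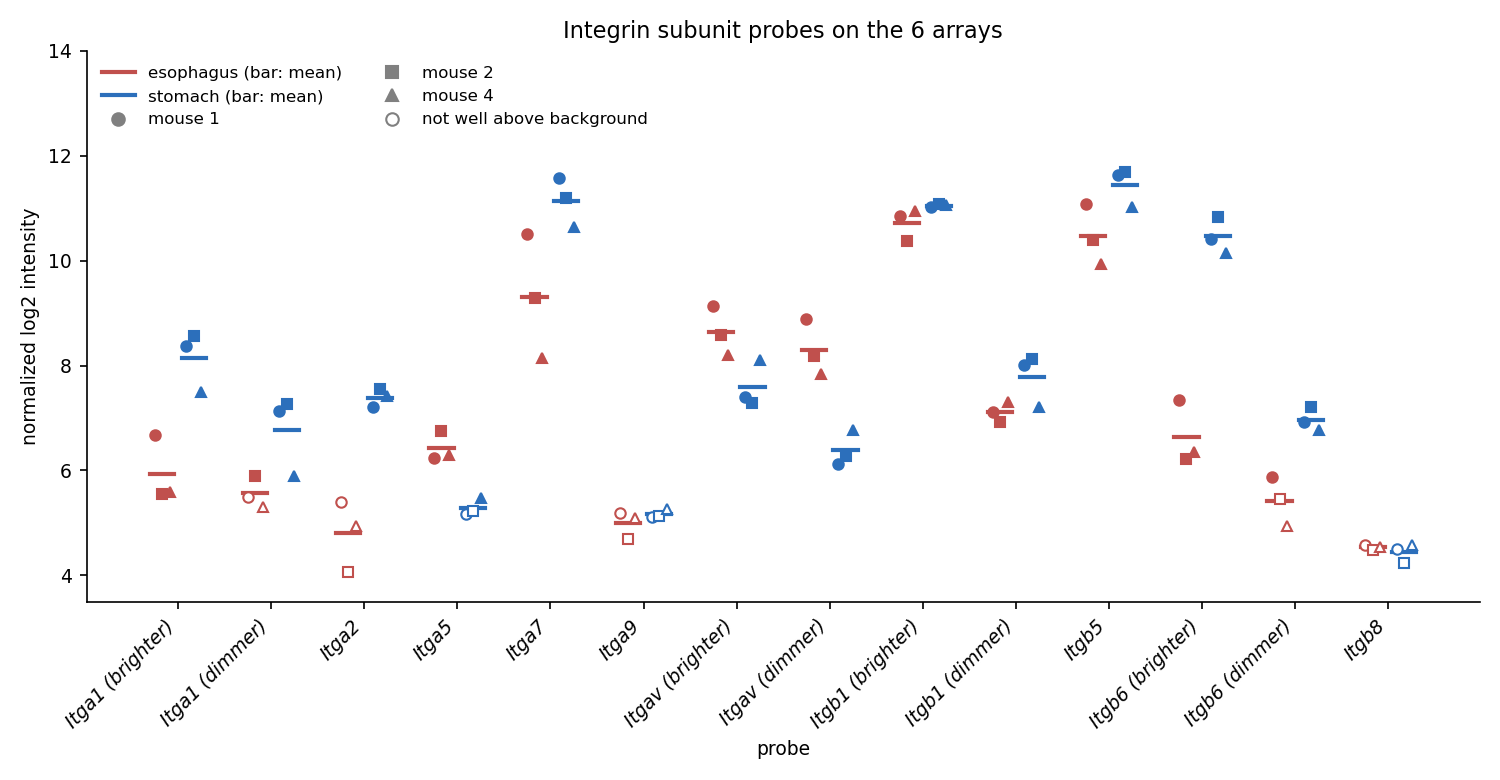
Normalized log2 intensity of the 14 integrin probes (x axis) on the 3 esophagus and 3 stomach arrays, with bars at the mean of each tissue. Both Itgb6 probes stand higher on all stomach arrays, both Itgav probes stand higher on all esophagus arrays, and Itga9 and Itgb8 are open symbols throughout, not well above background; levels of different probes are not comparable.

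*Itgb6*, whose product pairs with αv alone and is known as the epithelial receptor that activates latent TGF-β, was higher in stomach on both of its probes. On its brighter probe, which lies in the coding sequence of the cytoplasmic tail, the log2 intensity was 7.34, 6.21 and 6.36 in the esophagus organoids of mice 1, 2 and 4, and 10.42, 10.83 and 10.15 in the stomach organoids. Every stomach array stood above every esophagus array, and mouse 1 was the highest in esophagus. The raw mean signals behind these values were 176, 83.2 and 78.7 in esophagus and 1360, 914 and 1590 in stomach, over a local background of 19 to 22.5. This was a log2 fold change of -3.83 (SE 0.32, adjusted p = 0.00022), that is 14.2-fold higher in stomach with a 95% confidence interval of 8.45 to 23.9. Within the mice the differences were -3.08, -4.61 and -3.78.

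The dimmer *Itgb6* probe gave 5.87, 5.45 and 4.94 in esophagus and 6.93, 7.20 and 6.78 in stomach. It too was higher on every stomach array, by 2.94-fold (log2 fold change -1.56, SE 0.25, adjusted p = 0.00608), but in esophagus it was well above background on 1 of 3 arrays, that of mouse 1. With processed signals its log2 fold change was -3.21 under 75th percentile scaling (adjusted p = 0.0136) and -3.13 after quantile normalization, where the call was lost (adjusted p = 0.0958).

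*Itgb5*, which encodes the β subunit of the vitronectin receptor αvβ5, was higher in stomach in each of the 3 mice without passing the test. Its probe (chr16:33949123-33949182, plus strand) gave 11.08, 10.39 and 9.94 in esophagus and 11.64, 11.68 and 11.03 in stomach. The groups overlapped, since mouse 1 in esophagus stood above mouse 4 in stomach. It differed by -0.98 on the log2 scale (SE 0.31, adjusted p = 0.0965). The call was made with the mouse as a block (adjusted p = 0.0327) and without esophagus replicate 1 (-1.28, adjusted p = 0.0229).

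*Itgb8*, a further β partner of αv and likewise part of a receptor for latent TGF-β, gave no signal well above background (chr12:120401278-120401337, minus strand). Its log2 intensities were 4.54 ± 0.05 in esophagus and 4.44 ± 0.17 in stomach, so no fold change is given.

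*Itgav* itself went the other way from *Itgb6*. Its brighter probe (chr2:83646133-83646192, plus strand) gave 9.13, 8.58 and 8.20 in esophagus and 7.40, 7.29 and 8.10 in stomach. The groups did not overlap, but mouse 4 held the lowest esophagus value and the highest stomach value, and its difference was 0.10 against 1.74 and 1.29 in mice 1 and 2. A log2 fold change of 1.04 (SE 0.30, 95% confidence interval 0.34 to 1.74, adjusted p = 0.0667) did not pass the test. It passed without stomach replicate 4 (1.30, adjusted p = 0.0282) and without esophagus replicate 4 (1.26, adjusted p = 0.0397).

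The dimmer *Itgav* probe (chr2:83643905-83643964, plus strand) was called higher in esophagus. It gave 8.88, 8.18 and 7.84 in esophagus and 6.12, 6.27 and 6.77 in stomach, with no overlap and the same order of the mice in each tissue as on the brighter probe, except that mice 1 and 2 changed places in stomach. The log2 fold change was 1.91 (SE 0.29, adjusted p = 0.00503), or 3.76-fold with a 95% confidence interval of 2.34 to 6.06. Of the 2 probes of this gene, 1 therefore passed the test and 1 did not, in the same direction.

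*Itga5*, whose product forms the classical fibronectin receptor with β1, was higher in esophagus. Its probe (chr15:103175022-103175081, minus strand) gave 6.24, 6.76 and 6.30 in esophagus and 5.17, 5.22 and 5.47 in stomach. All esophagus values were higher than all stomach values, and in stomach the probe was well above background on 1 of 3 arrays. Its log2 fold change was 1.14 (SE 0.18, adjusted p = 0.00608), or 2.21-fold with a 95% confidence interval of 1.64 to 2.97, and it was positive in all 3 mice. Raw mean signals were 84.6, 119 and 75.6 in esophagus and 36, 31.4 and 53.5 in stomach, over a local background of 19 to 24, so this is a difference between dim spots. With the scanner's processed signals in place of the mean signals, the log2 fold change was larger and still called, at 2.09 (adjusted p = 0.00234) with 75th percentile scaling and 2.31 (adjusted p = 0.00911) after quantile normalization.

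**Figure D2:**
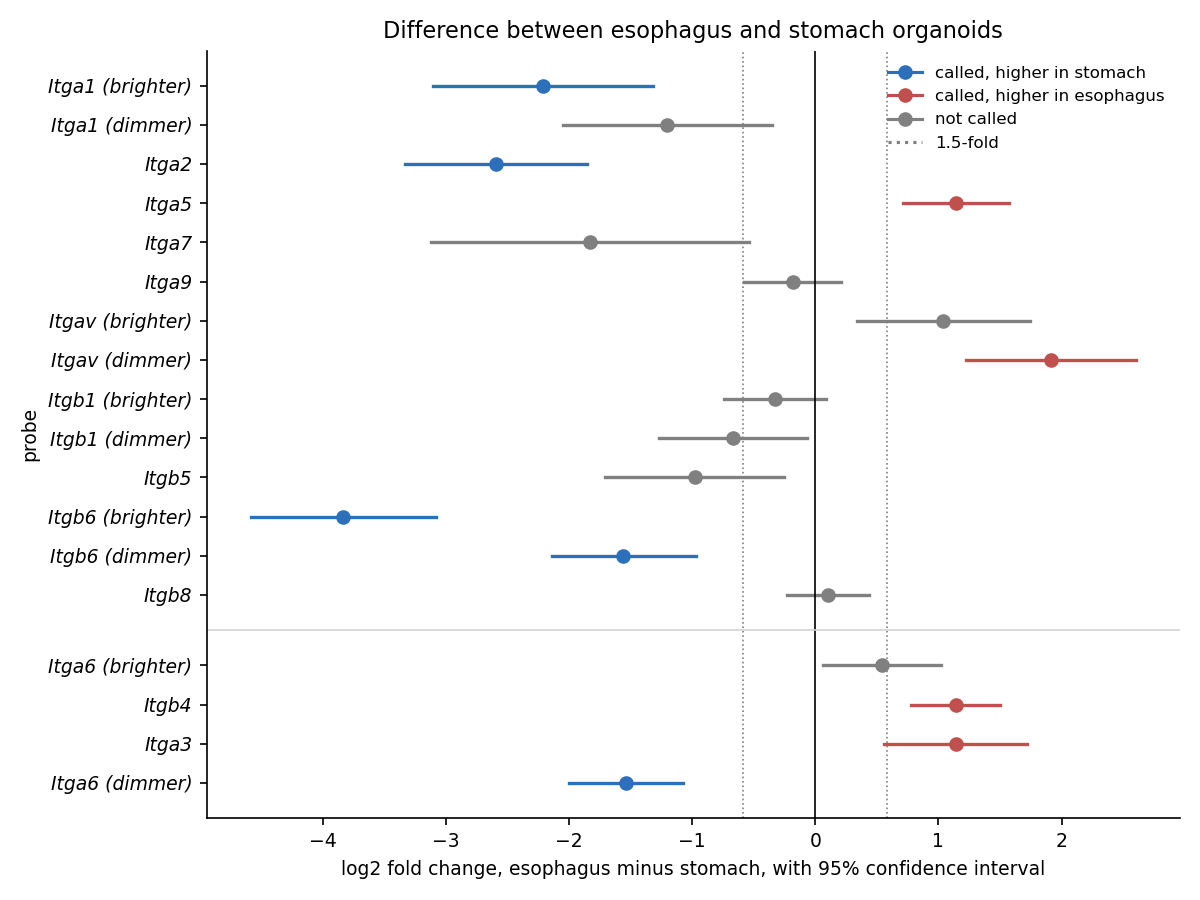
Log2 fold change (x axis, esophagus minus stomach) of each integrin probe with its 95% confidence interval, the 10 subunits above the grey line and the subunits of hemidesmosome and laminin-332 integrins below it; dotted lines mark 1.5-fold. The brighter Itgb6 probe lies at -3.83, Itga2, not well above background in esophagus, at -2.59 and the dimmer Itgav probe at 1.91, while the brighter Itgb1 probe has an interval of -0.74 to 0.09.

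Both collagen receptor α subunits were called higher in stomach by their brightest probes. *Itga2*, which encodes the α2 subunit of the collagen receptor α2β1, gave 5.39, 4.07 and 4.95 in esophagus and 7.21, 7.55 and 7.42 in stomach. The esophagus values were not well above background on any array, and the stomach values were on all 3. The fold is therefore given as at least 5.22-fold higher in stomach. This figure was computed against the dimmest signals well above background in esophagus, or the probe's own where brighter. It allows for the unmeasured esophagus level only and is no limit on sampling error or on the background correction. The fitted log2 fold change was -2.59 (SE 0.32, adjusted p = 0.00167), or 6.02-fold with a 95% confidence interval of 3.59 to 10.1. It was called in every alternative fit but its size moved with the background correction, from -1.69 with a normexp offset of 50 to -4.61 with processed signals under 75th percentile scaling.

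*Itga1*, which encodes the α1 subunit of the collagen IV receptor α1β1, gave 6.67, 5.55 and 5.58 in esophagus and 8.37, 8.56 and 7.50 in stomach on its brighter probe. The groups did not overlap, and the differences within mice were -1.69, -3.02 and -1.92. The log2 fold change was -2.21 (SE 0.38, adjusted p = 0.00855), or 4.63-fold higher in stomach with a 95% confidence interval of 2.50 to 8.60. The call was lost with quantile-normalized processed signals (-3.04, adjusted p = 0.0545).

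The dimmer *Itga1* probe gave 5.50, 5.89 and 5.30 in esophagus and 7.14, 7.26 and 5.90 in stomach, and in esophagus it was well above background on 1 of 3 arrays. All stomach values were higher, that of mouse 4 by 0.01 over the highest esophagus value. Its log2 fold change of -1.20 (SE 0.36, adjusted p = 0.08) did not pass the test. It passed with the mouse as a block (adjusted p = 0.0307) and without stomach replicate 4 (-1.64, adjusted p = 0.00357).

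*Itga7*, which encodes a laminin receptor subunit best known from muscle, was well above background on all 6 arrays and higher on every stomach array. Its probe (chr10:128395274-128395333, plus strand) gave 10.50, 9.28 and 8.14 in esophagus and 11.57, 11.20 and 10.64 in stomach. The esophagus values spread over 2.36 log2 units, the widest of the 14 probes (SD 1.18 against 0.47 in stomach). A log2 fold change of -1.83 (SE 0.55, 95% confidence interval -3.12 to -0.54, adjusted p = 0.0792) did not pass the test. It passed with the mouse as a block (adjusted p = 0.0142), with differences of -1.08, -1.92 and -2.49 in mice 1, 2 and 4, and without esophagus replicate 1 (-2.43, adjusted p = 0.00978). Without esophagus replicate 4 the value was -1.25 (adjusted p = 0.119). None of the 4 smooth muscle markers was called. *Tagln* gave 10.38, 10.06 and 8.60 in esophagus, in the same order of mice as *Itga7*, and 9.33, 8.77 and 10.63 in stomach, where the order differed. Its differences within mice were 1.05, 1.29 and -2.03, against negative ones in all 3 mice for *Itga7*. *Acta2* differed by 0.63, *Des* by -0.03 and *Myh11*, near background on all 6 arrays, by 0.30. The part of these markers in the *Itga7* values was not tested.

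*Itga9*, whose product binds tenascin, osteopontin and other ligands with β1, gave no signal well above background (chr9:118807900-118807959, plus strand). Its log2 intensities were 4.99 ± 0.26 in esophagus and 5.17 ± 0.09 in stomach, and no fold change is given.

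The shared β1 subunit had the smallest fold changes among the subunits measured above background. The brighter *Itgb1* probe, which holds both NPxY motifs, gave 10.85, 10.38 and 10.95 in esophagus and 11.02, 11.08 and 11.06 in stomach. The stomach values were all higher, by 0.07 between the nearest arrays. The log2 fold change was -0.33 (SE 0.18, 95% confidence interval -0.74 to 0.09, adjusted p = 0.326), an interval that leaves out a difference above 1.67-fold in stomach and above 1.06-fold in esophagus. The dimmer probe gave 7.11, 6.93 and 7.30 in esophagus and 8.01, 8.12 and 7.21 in stomach, and overlapped at mouse 4. Its log2 fold change was -0.67 (SE 0.26, 95% confidence interval -1.27 to -0.07, adjusted p = 0.157). This wider interval reaches 2.41-fold higher in stomach. The dimmer probe was called higher in stomach only in the fit without stomach replicate 4 (-0.96, adjusted p = 0.0137).

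**Figure D3:**
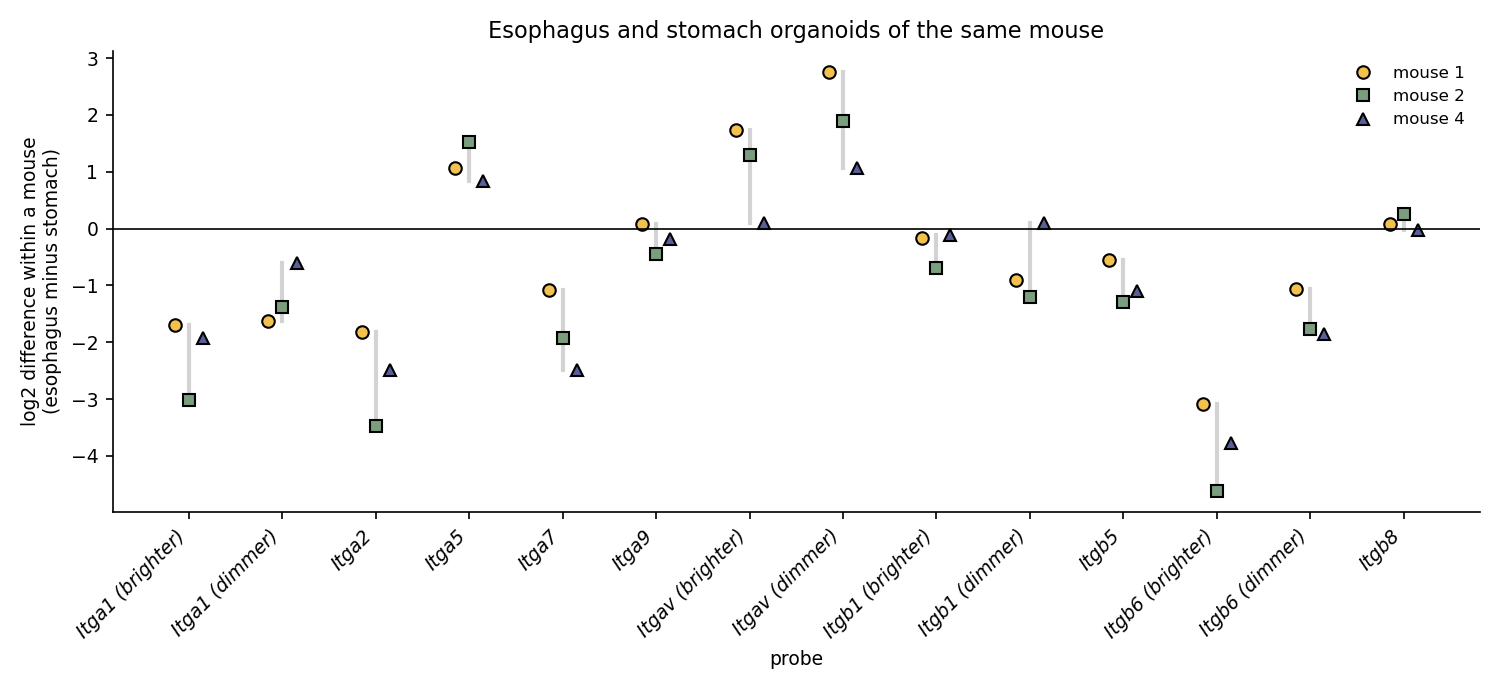
Difference in log2 intensity (y axis, esophagus minus stomach) between the 2 organoid cultures of mouse 1, 2 and 4 for each probe, with a grey line from the lowest to the highest. On 11 of the 14 probes the 3 mice lie on 1 side of zero; Itga9, Itgb8 and the dimmer Itgb1 probe cross it, and mouse 4 is near zero on the brighter Itgav probe.

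The arrays of a tissue did not share the differences evenly. Of the 12 probes measured above background, the stomach organoids of mouse 4 had the stomach value nearest to the esophagus mean on 10, those of mouse 1 on 2 and those of mouse 2 on none. Among all 6658 called probes with a value on every array, the stomach organoids of mouse 4 were nearest on 53.4%, those of mouse 1 on 24.8% and those of mouse 2 on 21.7%. These are the organoids harvested on day 7, and the day, the mouse and the array cannot be told apart here. In esophagus the nearest value to the stomach mean was that of mouse 1 on 7 of the 12 probes, of mouse 4 on 4 and of mouse 2 on 1, against 36.6%, 36.4% and 27.0% of the called probes. The median SD of the 14 probes was 0.47 in esophagus and 0.34 in stomach, against 0.282 and 0.232 for all probes that a tissue measured well above background. The sets are unlike, since the 14 include *Itga9* and *Itgb8*, well above background on no array, and probes near background in 1 tissue.

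Of the hemidesmosome and laminin-332 integrins, 2 subunits were higher in esophagus. *Itgb4*, which encodes the β subunit of the hemidesmosome, was higher in esophagus by 1.14 on the log2 scale (SE 0.15, adjusted p = 0.00275). *Itga3*, of the laminin receptor α3β1, was also higher in esophagus by 1.14 (SE 0.25, adjusted p = 0.0243), a call lost with an adjusted p of 0.0543 to 0.0873 without esophagus replicate 2 or 4 or stomach replicate 1 or 2. *Itga6*, the α partner of β4, was not called on its brighter probe (0.54, SE 0.21, adjusted p = 0.157) except without stomach replicate 4 (0.74, adjusted p = 0.035), and its dimmer probe was called higher in stomach (-1.54, adjusted p = 0.00214). By the brightest probe, 2 of these 3 genes were called, beside 14.6% of all genes, and the difference from the 10 subunits was not tested.

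Of 13 further integrin subunits, mostly those of leukocytes, platelets and mesenchyme, 2 were called, a share near the 14.6% of all genes, and 6 were near background signal throughout. *Itgam*, the αM subunit of myeloid cells, was called higher in stomach on 1 probe (13.28 ± 0.48 against 10.67 ± 0.39, adjusted p = 0.000974), but its 2 other probes were near background on all 6 arrays and its β partner *Itgb2* was not called and was well above background on no esophagus array and 2 stomach arrays. *Itgb7*, a lymphocyte subunit, was called higher in esophagus (2.24, adjusted p = 0.0408), with 9.45 in mouse 1 beside 7.41 and 7.08, and the call was lost without esophagus replicate 2 (adjusted p = 0.0599) and without each stomach array (adjusted p = 0.0792 to 0.138). Without esophagus replicate 1 it was called at a smaller log2 fold change (1.5, adjusted p = 0.00195). *Itgal*, the αL subunit of leukocytes, gave 8.85, 8.20 and 5.50 in esophagus and was not well above background in stomach. Its difference was 0.31 in mouse 4 against 3.59 and 3.25 in mice 1 and 2, and it was not called (adjusted p = 0.0978). The macrophage marker *Cd68*, also not called, was likewise highest in esophagus mouse 1, with 14.69 beside 12.88 and 11.78, and 11.01, 11.20 and 12.29 in stomach. The part of leukocytes in the *Itgb7* values was not tested. The αv partner *Itgb3* was not called (0.58, adjusted p = 0.239), with 5.30 ± 0.45 in esophagus and 4.71 ± 0.32 in stomach, and it was well above background on 1 esophagus array and on no stomach array.

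Among 20 basement membrane genes that encode ligands of the collagen and laminin receptors, 10 were called higher in stomach, 3 higher in esophagus and 7 were not called, beside 7.70% and 6.93% of all genes called in these directions. The median log2 fold change was -1.24, beside 0.03 over all genes. Of the 6 collagen IV chains, 4 were called higher in stomach, while *Col4a3* gave no signal well above background and *Col4a4* was not called. *Col4a2* was at least 63.4-fold higher in stomach (adjusted p = 4.59e-07), *Col4a1* at least 49.0-fold (adjusted p = 9.56e-07) and *Col4a5* at least 25.7-fold (adjusted p = 2.29e-06), none of them well above background in esophagus. Higher in esophagus were 3 laminin chains, *Lama3* by 4.65 on the log2 scale (adjusted p = 0.000134), *Lamb1* by 3.44 (adjusted p = 0.000348) and *Lamb3* by 1.87 (adjusted p = 0.000187). *Lama3* and *Lamb3* encode the α3 and β3 chains of laminin-332, the ligand of α6β4 and α3β1.

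Of the 25 listed RGD and α9 ligands and modulators, 23 were on the array, and 8 were called higher in stomach and 4 higher in esophagus, beside 7.70% and 6.93% of all genes, with a median log2 fold change of -0.34 beside 0.03. *Spp1*, which encodes osteopontin, a ligand of αv and α9 integrins, was at least 591-fold higher in stomach (adjusted p = 2.8e-06). *Tgfb3*, whose latent form is a ligand of αvβ6 and αvβ8, was higher in stomach (log2 fold change -4.27, adjusted p = 0.000203), and *Npnt*, which encodes nephronectin, at least 11.6-fold (adjusted p = 0.0027) on its brighter probe and at least 4.05-fold on the other. The stomach values of the brighter *Npnt* probe were 7.75, 8.42 and 9.87, and its fitted log2 fold change moved from -3.53 to -2.93 without stomach replicate 4. *Tgfb1*, the other latent TGF-β on the list, went the other way, higher in esophagus by 2.53 (adjusted p = 0.000129). *Tgfbi*, a secreted matrix protein, was at least 444-fold higher in esophagus (adjusted p = 5.7e-07), and *Ltbp4*, a latent TGF-β binding protein, was higher there by 3.19 (adjusted p = 0.000216).

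Of 39 integrin activators and adaptors, 4 were called in each direction and 31 were not. Their median log2 fold change was 0.08. Over all genes 6.93% were called higher in esophagus and 7.70% higher in stomach, so these counts are near the background. Among those higher in stomach were *Fermt1* (kindlin-1, which binds β tails, log2 fold change -2.02, adjusted p = 0.0022) and *Bcar1* (the adaptor p130Cas, -1.34, adjusted p = 0.00544). Higher in esophagus were *Tns1* (tensin 1, 2.90, adjusted p = 7.06e-06), *Lims1* (PINCH1, 1.26, adjusted p = 0.00144) and *Flna* (filamin A, 1.13, adjusted p = 0.00909).

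**Figure D4:**
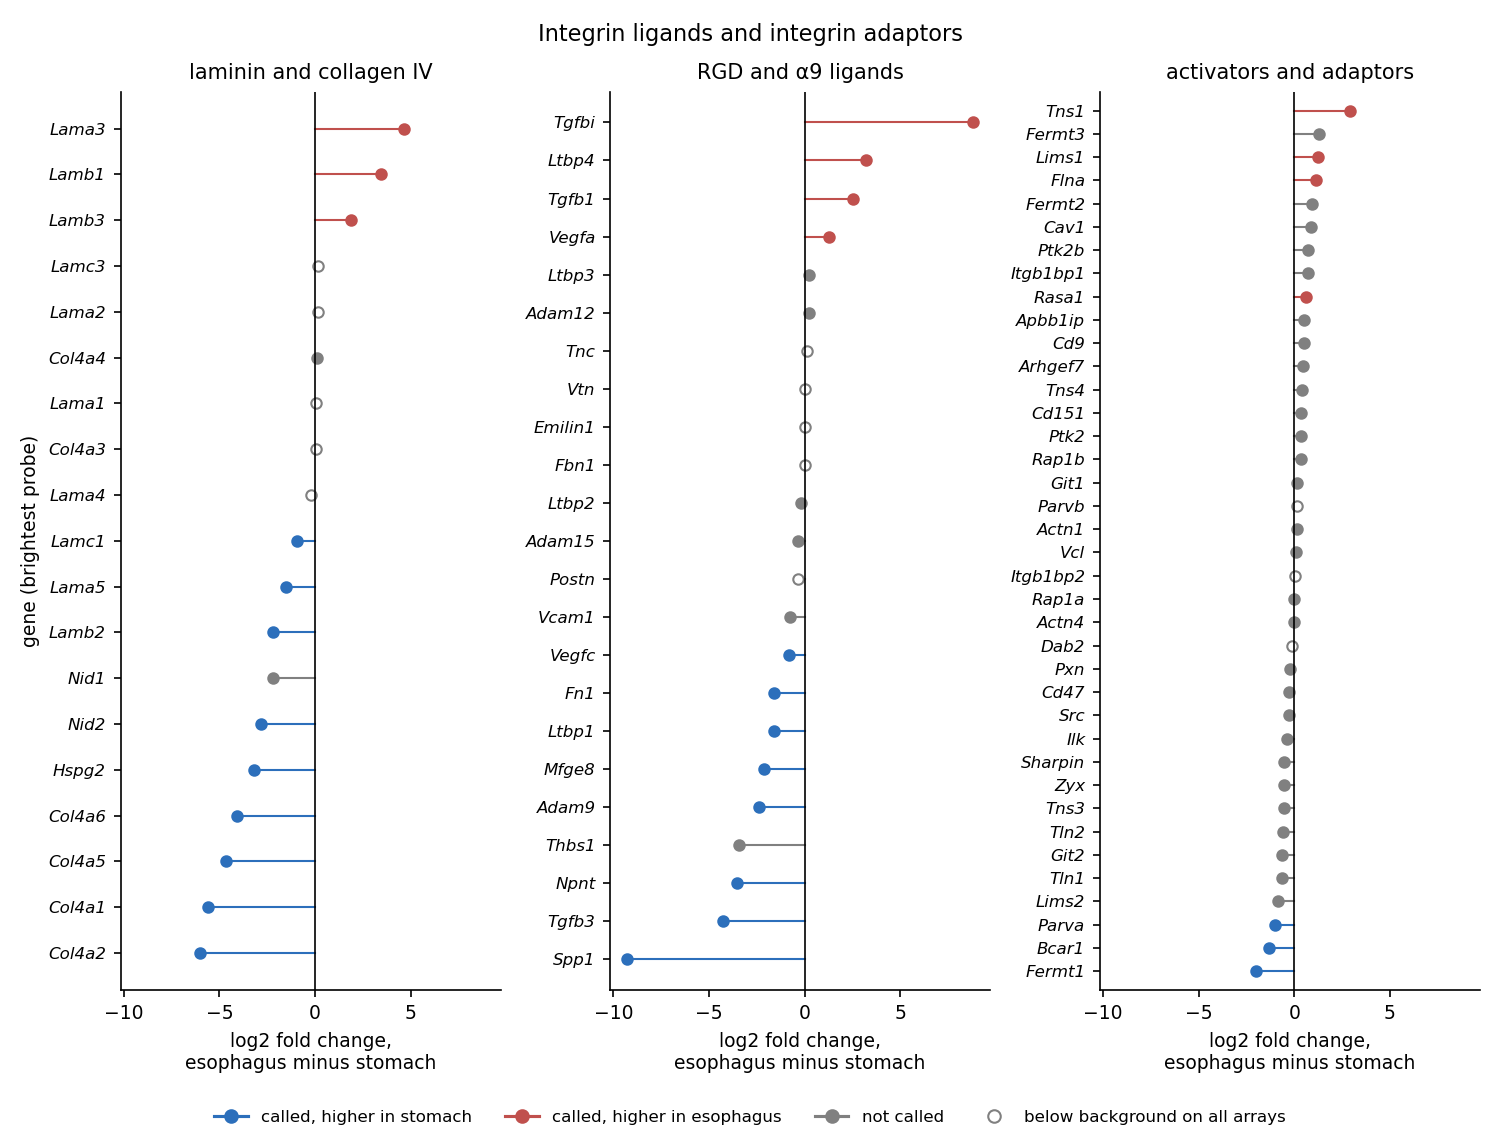
Log2 fold change (x axis, esophagus minus stomach) of the listed ligand, activator and adaptor genes reported here, by the brightest probe, colored where called; open symbols were below background on all arrays. Col4a1, Col4a2, Col4a5 and Spp1 lie far to the left and Tgfbi and Lama3 to the right. Over the full list, 31 of the 39 activators and adaptors were not called.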

How the data were processed

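Total RNA of 6 organoid cultures was labeled with Cy3 and hybridized to Agilent mouse arrays in a 60K format. The authors read the scans with Feature Extraction (version 11.5.1.1), and the deposited scanner files give, for each of 62976 spots, raw mean and median intensity, local background intensity, a processed intensity and flags, none normalized between arrays. The authors' deposited log2 table was background corrected and quantile normalized. Its scale was found by setting it against the scanner files: normexp on median intensities with an offset of 15 and quantile normalization differed from it by 0.00675 (median absolute difference), and its columns have medians of 5.33 or 5.34. The values used here were computed in R 4.3.3 with limma 3.58.1: normexp on mean intensities (offset 16) with the median local background, 117 to 184 outlier-marked spots per array set to missing, quantile normalization over 59305 non-control spots and averaging per probe. The offset pulls fold changes of dim spots towards zero. Folds given as at least a value allow for the unmeasured level of the dimmer tissue only, not for sampling error or the choice of offset. Fold changes of the 14 probes from the authors' table differed from these by at most 0.12.

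Esophagus was compared with stomach by lmFit and eBayes over the 6 arrays, without a block, and p-values were adjusted by Benjamini-Hochberg over all 55681 probes. On simulated data the script was tested before use. A gene was represented by its brightest probe. The arrays number 3 per tissue, which limits the precision, and 45.5% to 51.1% of spots were well above background. The labels name each culture by its mouse number, which pairs the cultures of a number. Deviations of the arrays of a number from their tissue means correlated with r = 0.0235, 0.0119 and -0.0102, and the block was an alternative. The array of esophagus mouse 4 was alone on a second slide. Further alternatives were other signals, offsets, scalings, filters, thresholds and leaving out each array. The members and gene lists were chosen with earlier results of these data known. Named are every member probe, *Krt5*, *Krt8*, the hemidesmosome subunits, and up to 3 genes called in each direction per list; a few listed genes are not reported here. All 10 names are in the RefSeq table of GRCm38.p6, used for names and neighbours only. Proteins were not analysed here.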

Additional observations from a re-analysis of the deposited data

How the results depend on the processing

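Under 15 alternatives for each measured probe (14 for *Itga9* and *Itgb8*, which the filter on dim probes leaves out), no log2 fold change of the 14 probes changed sign, and 191 of 208 values kept their side of the threshold. *Itga2*, *Itga5*, the dimmer *Itgav* probe and the brighter *Itgb6* probe were called under all of them, at -4.61 to -1.69, 0.72 to 2.31, 1.57 to 2.33 and -4.36 to -3.42. With quantile-normalized processed signals the brighter *Itga1* probe (-3.04, adjusted p = 0.0545) and the dimmer *Itgb6* probe (-3.13, adjusted p = 0.0958) lost their call, and 4 of 14 probes and 3 of 10 genes were called. Fitted to probes well above background alone, which are fewer, 9 probes and 6 genes were called, adding the dimmer *Itga1* probe (adjusted p = 0.0475), *Itga7* (0.0422) and the brighter *Itgav* probe (0.0431). The dimmer *Itga1* probe was also called with 75th percentile scaling (-2.12, adjusted p = 0.0465) and with trended robust variances (adjusted p = 0.0497), and the brighter *Itgav* probe with the slide as a block (1.26, adjusted p = 0.0397), which amounts to leaving esophagus replicate 4 out. The replicate block added the dimmer *Itga1* probe, *Itga7* and *Itgb5* (9 probes, 6 genes) and removed none. At p under 0.05 without adjustment and at least 1.5-fold, 11 probes and 7 genes were called, beside 17.9% of all probes. Leaving out each array gave 6 to 9 probes and 4 to 6 genes. The 75th percentile scaling moved the median of all probes from 0.02 to 0.19. Chosen after the data had been seen, the same alternatives were run on the lists and the 30 other named genes, none of which changed sign. The hemidesmosome list gave 1 called gene with quantile-normalized processed signals or the slide as a block and 1 to 3 without each array. The list of other subunits gave 1 with those signals or an offset of 50 and 1 to 3 without each array. The fibroblast and smooth muscle markers gave 1 with processed signals under either scaling. *Bcar1* lost its call with 75th percentile scaling (-1.08, adjusted p = 0.0797), and the brightest *Trp63* probe lost it in 9 fits (adjusted p up to 0.123).

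With 3 arrays per tissue, a p that misses the threshold does not show that the tissues act alike. Signal over background limits *Itga2*, *Itga5*, *Itga9*, *Itgb8* and the dimmer *Itga1* and *Itgb6* probes.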
